A study of Homo sapiens with 9 samples.

Results

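The genes described here encode the proteasome and the proteins that activate, inhibit or assemble it. They were taken as every gene whose symbol in the platform annotation is PSMA, PSMB, PSMC, PSMD, PSME, PSMF or PSMG followed only by digits, and 42 of the 19775 genes with a level met this rule. RefSeq lists 48 human genes with such symbols. For PSMA6 and PSME2 the probe sets carry several gene symbols, and PSMB11, PSMC5, PSMD7 and PSMD13 had no probe set with 1 symbol, so these 6 were given no level and were not analysed here. The cells were U937, a human lymphoma line of monocyte character. They spent 15 min at either 42 or 44 °C, then 0, 1, 3 or 6 h back at 37 °C, and the control was never taken above 37 °C. Each of these 9 conditions was measured on 1 Affymetrix U133 Plus array, whose short probes lie mostly towards the 3′ end of a transcript. All groups are the same cell line with no genetic change, and no drug was named. The series title places the study in heat-induced apoptosis.

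The 26S proteasome is the large protease that degrades proteins tagged with ubiquitin. Its 20S core is a barrel of stacked rings, in which alpha subunits form the gate and beta subunits hold the catalytic sites, and its 19S cap recognises ubiquitin, unfolds the substrate with a ring of ATPases and feeds it into the barrel. Other proteins can replace the cap as activators, and dedicated assembly factors put the rings together. Heat unfolds proteins, and cells meet this both with chaperones and with degradation. When proteasome activity falls short, the transcription factor NFE2L1 is known to raise transcription of the subunit genes together.

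With 1 array per condition, no single condition could be tested against another, so the folds between arrays are descriptions and carry no replicate error. The temperatures could be tested over the 4 recovery times together, and that test is given where 44 and 42 °C are compared. A gene is said to have risen or fallen when its signal differed at least 1.5-fold, a log2 fold of 0.58 in size, and the share of all 19775 genes past the same size is given as background. The deposited arrays differed in overall level, with trimmed means of 101 to 160.4 for 42 °C, 165 for the control and 172 to 211 for 44 °C, and were scaled to a common level. This level moved with temperature, and its part in the differences between temperatures was not tested. RNA integrity, read as the ratio of 3′ to 5′ signals, was 1.18 to 1.36 (ACTB) and 0.939 to 1.13 (GAPDH). Of 9 measured myeloid markers 7 lay above the floor signal of 12.5 on all arrays, with a summed scaled signal of 9661 to 14975, while MPO and FCGR1A were at the floor. Of 10 markers of lymphoid, epithelial, fibroblast and erythroid cells 1, the B cell gene CD79A, lay above it on all arrays, and the list summed to 144 to 402. Of the others, CD3E, CD3G, EPCAM, KRT19 and COL1A2 were at the floor throughout, whereas COL1A1 went from 12.5 in the control to 268 at 42 °C and 6 h. The erythroid gene HBB was above the floor on 7 arrays, at 28.9 or less, CD3D on 2 and MS4A1 on 1. The single control has no time in its label and serves all recovery times, so time in culture cannot be told apart from heat, and in bulk RNA fewer cells of a kind cannot be told apart from less RNA per cell.

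Proteasome genes were bright and differed little between arrays by the brightest probe set of each, which is used here unless another is named. PSMA8, the alpha subunit specific to testis, was at the floor on all arrays, and the other 41 genes were above it on all 9. Of the 42 genes, 35 fell in the brightest 10% of all genes by mean signal. No fold reached 2 in any of the 12 comparisons, 8 of them between a heated array and the control and 4 between the temperatures at equal recovery times. The widest was PSMG4, 1.93-fold lower at 44 °C and 6 h. Some dimmer probe sets did pass 2-fold. That of PSMB4 had 269 at 42 °C and 6 h and 120 at 44 °C and 6 h, and that of PSMB2 had 72.6 in the control and 18.7 at 42 °C and 3 h. Across all 9 arrays the highest signal of a gene exceeded its lowest by a median of 1.42-fold, from 1.25-fold for PSMF1 to 1.98-fold for PSMG4, against a median of 1.48-fold over the 1978 genes of the brightest 10%. PSMD4, PSMD10 and PSMG4, 3 of the 42 genes, passed 1.5-fold in at least 1 comparison, 7 times among 504 folds. Those folds include the 12 of PSMA8, which at the floor could not pass. The shares of all genes past 1.5-fold or 2-fold in any of the 12 comparisons were not counted, and those past 1.5-fold are given by comparison.

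After 42 °C, 1 of 42 genes rose and 0 fell at 0 h, where 3.70% of all genes rose and 8.01% fell. At 1 h 0 rose and 0 fell, against 5.42% and 5.36% of all genes. The counts at 3 h were 1 and 0, against 5.85% and 9.07%, and at 6 h 0 and 1, against 8.15% and 8.56%. After 44 °C, 0 rose and 0 fell at 0 h (3.93% and 4.40% of all genes), 0 and 1 at 1 h (3.64% and 2.84%), 0 and 0 at 3 h (3.93% and 6.06%), and 1 and 1 at 6 h (6.55% and 8.94%). No array had more than 1 rise and 1 fall among the proteasome genes. Among the brightest 10% of genes the shares ran from 0.657 to 5.86% for rises and from 0.657 to 5.81% for falls over these 8 comparisons.

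Below that size, most genes lay slightly above the control on several arrays. Their median log2 fold against the control was 0.27, 0.12, 0.27 and 0.13 at 0, 1, 3 and 6 h after 42 °C, and 0.16, -0.037, 0.097 and 0.062 after 44 °C. The median over all genes was 0 in each, which is largely set by the many genes at the floor. Over the 9913 genes above the floor on all arrays the median ran from -0.056 to 0.022. The brightest 10% of genes had 0.14, 0.06, 0.17 and 0.049 after 42 °C and 0.046, -0.046, 0.039 and 0.024 after 44 °C. At 42 °C and 0 h, 40 of the 41 genes above the floor stood higher than in the control, as did 70.5% of the brightest 10%. At 42 °C and 3 h the numbers were 37 genes and 70.3%, and at 44 °C and 1 h 16 genes and 38.8%. By their brightest probe sets, the 9 genes above the control on all 8 heated arrays were PSMA3, PSMA5, PSMB6, PSMC1, PSMC2, PSMD2, PSMD4, PSME1 and PSMD10. All but PSMA3 and PSMC2 were so with quantile normalisation too. All 8 folds share 1 control array, and the share of all genes with this pattern was not counted. Some of the 9 barely exceeded the control on their lowest heated array. The log2 folds there were 0.00022 for PSMB6, 0.0028 for PSMC2, 0.0055 for PSMA3 and 0.010 for PSME1. For scale, the log2 differences between the control and the 44 °C array at 0 h had a robust SD of 0.22 over the brightest 10%.

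**Figure D1:**
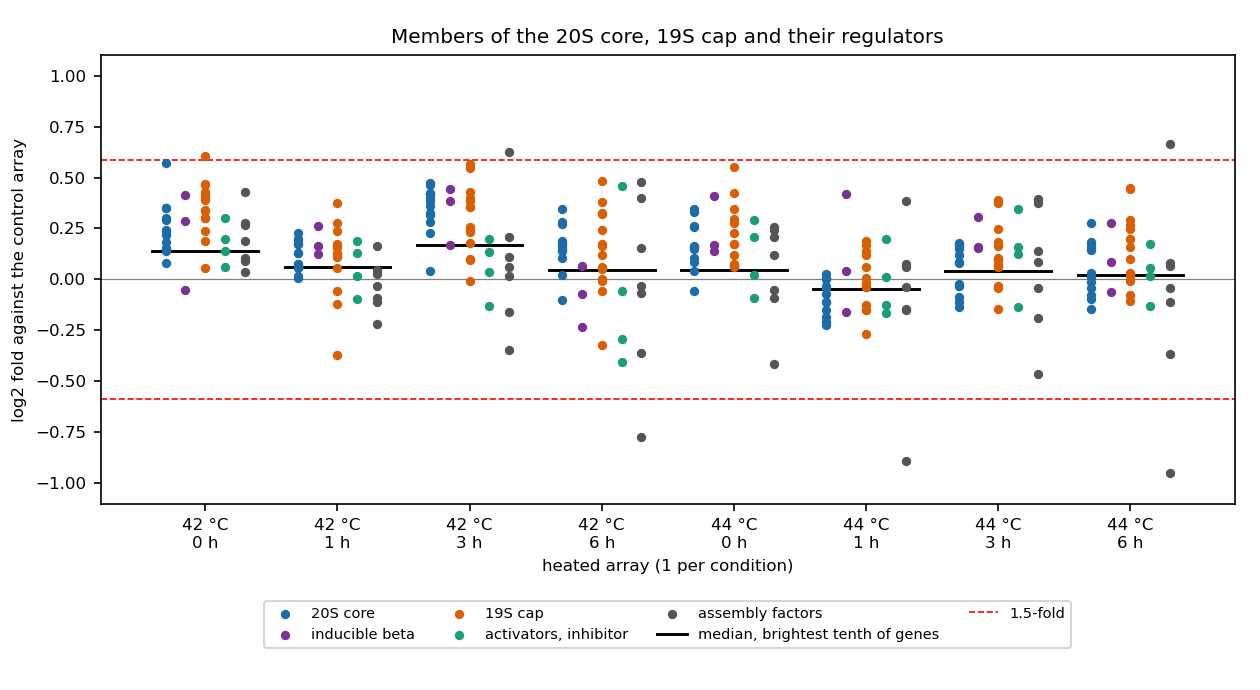
Log2 fold of each proteasome gene above the floor against the control array (y axis, dots coloured by class) on each heated array (x axis), with the median of the brightest 10% of genes as a black line and 1.5-fold as dashed lines. Most dots lie inside the dashed lines, and the most extreme ones are grey assembly factors, with PSMG4 lowest at -0.95 and PSMD10 highest at 0.67, both at 44 °C and 6 h.

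The size of these medians depended on the normalisation. With quantile normalisation, which gives all arrays the same distribution of signals, the median log2 fold was 0.16, 0.03, 0.084 and 0.055 after 42 °C and 0.15, -0.007, 0.062 and 0.0044 after 44 °C. The brightest 10% of genes then lay at 0.021 and 0.019 at 0 h. At 0 h, 35 of 41 genes at 42 °C and 36 at 44 °C were still higher than in the control, against 53.7 and 53.5% of the brightest 10%. At 42 °C and 3 h quantile normalisation moved the log2 fold by a median of -0.27 for the 21 brighter genes and by -0.042 for the 20 dimmer ones. PSMB1, a bright member, went from 0.47 to -0.0069, while the dim PSMB9 went from 0.44 to 0.54.

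**Figure D2:**
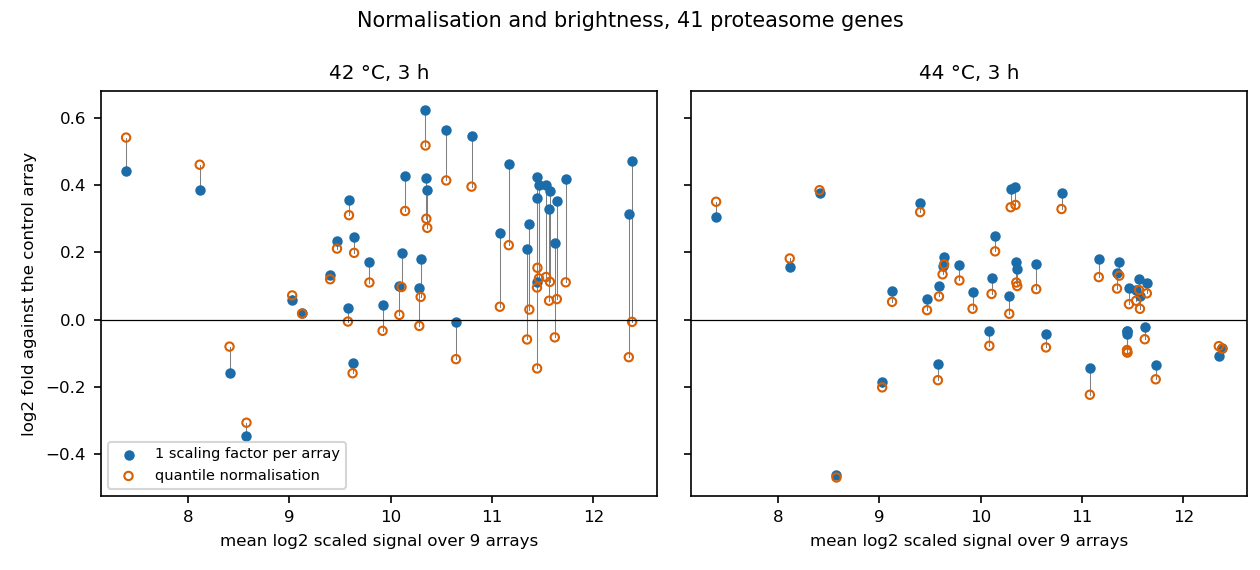
Log2 fold against the control (y axis) of the 41 proteasome genes above the floor, by their mean log2 scaled signal over 9 arrays (x axis), at 3 h after 42 °C (left) and 44 °C (right), with filled dots for 1 scaling factor per array, open dots for quantile normalisation and a line joining both. At 42 °C the brightest genes drop the most, PSMB1 from 0.47 to -0.0069, and at 44 °C the pairs lie close together.

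**Figure D3:**
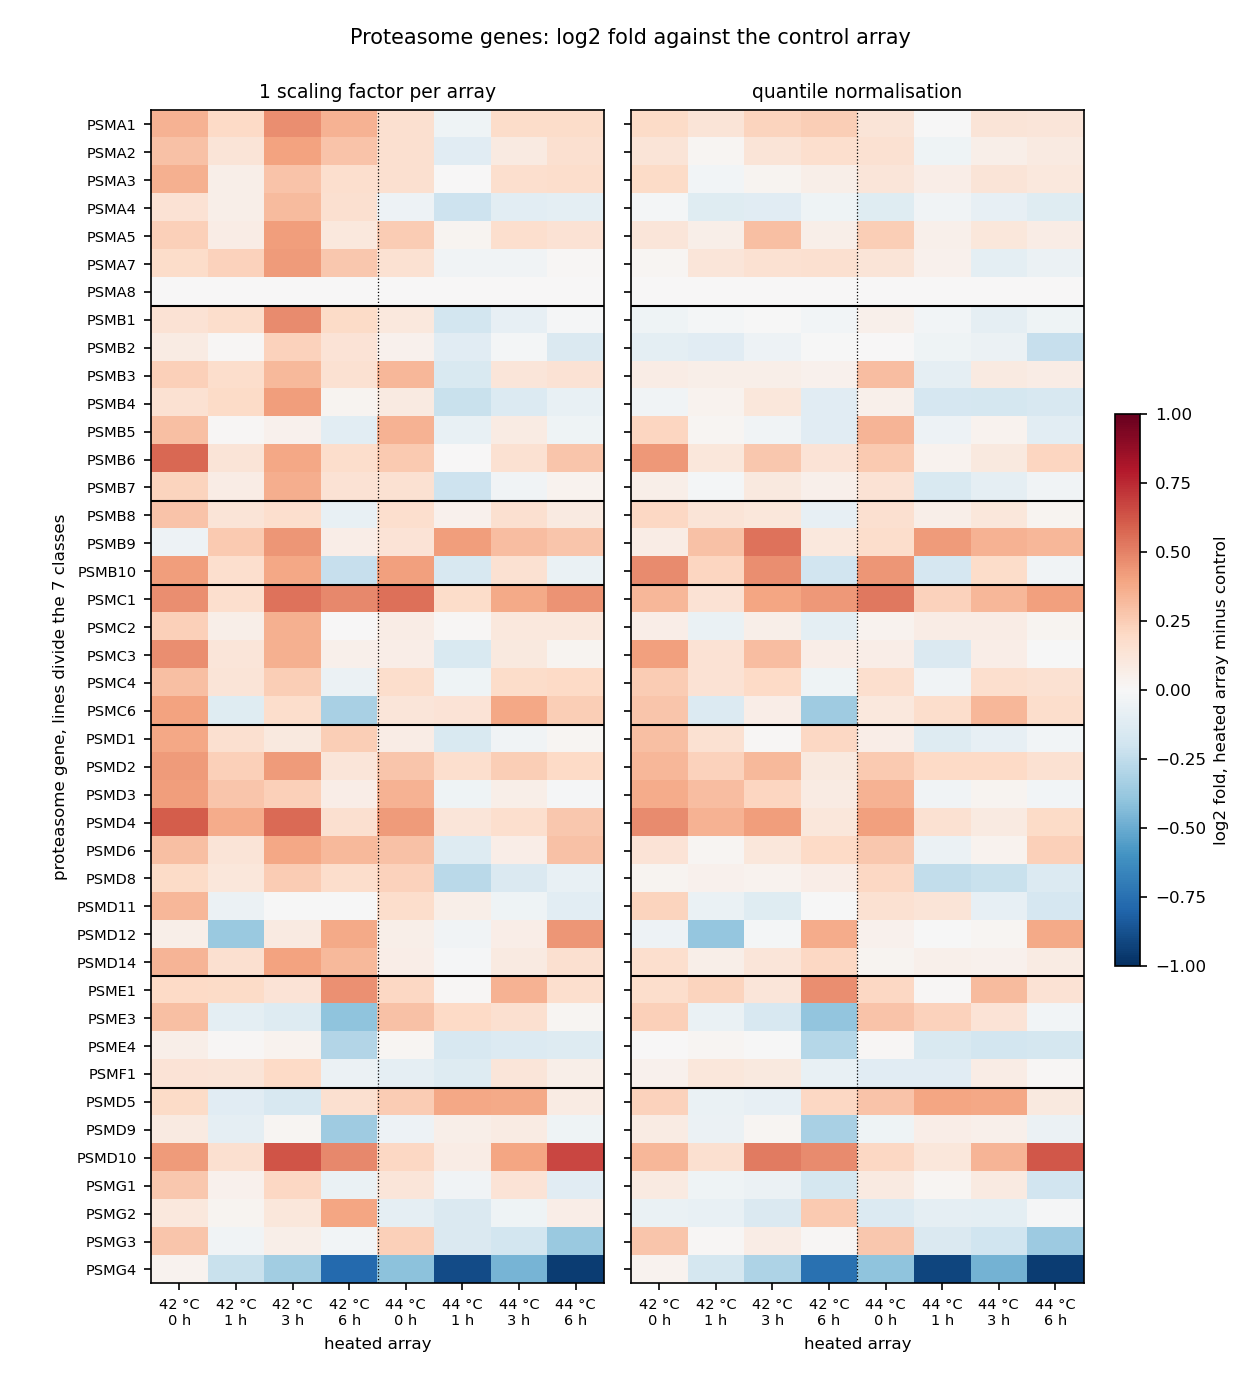
Log2 fold of all 42 proteasome genes (rows, divided into 7 classes by lines) against the control on each heated array (columns), with 1 scaling factor per array (left) and quantile normalisation (right). Red is higher and blue lower than the control; the left panel shows the pale red columns at 42 °C, 0 and 3 h, which fade on the right, and PSMG4 and PSMD10 keep their colours in both.

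Among the alpha subunits of the 20S core, 6 of 6 genes above the floor stood higher than in the control at 42 °C and 0 h and 6 at 3 h, with medians of 0.27 and 0.41 (quantile 0.12 and 0.14) and ranges of 0.14 to 0.35 and 0.28 to 0.46. PSMA3, a gate-forming ring subunit, had a scaled signal of 2376 in the control, 3034, 2476, 2892 and 2677 at 0, 1, 3 and 6 h after 42 °C, and 2656, 2386, 2676 and 2679.8 at those times after 44 °C. No heated array was below the control for PSMA3, and the spread from lowest to highest was 1.28-fold. PSMA4, another ring subunit, had 5132 in the control, 5659, 5332, 6388 and 5742 at 0, 1, 3 and 6 h after 42 °C, and 4942, 4439, 4759 and 4806 at those times after 44 °C. All 42 °C arrays were above the control and all 44 °C arrays below it for PSMA4, but with quantile normalisation its log2 folds ran from -0.12 to -0.016 at 42 °C and from -0.12 to -0.039 at 44 °C, with no separation by temperature. PSMA2 had 2660.3 in the control, 3253, 2912, 3509.9 and 3238 at 0, 1, 3 and 6 h after 42 °C, and 2979.7, 2461, 2826 and 2968 at those times after 44 °C, so that its lowest value was at 44 °C and 1 h and its highest at 42 °C and 3 h. Its other probe set had a log2 fold of 0.053 at 42 °C and 3 h, against 0.40 by the brighter one. PSMA1, PSMA5 and PSMA7 had log2 folds of -0.043 to 0.46, 0.025 to 0.42 and -0.033 to 0.42, each highest at 42 °C and 3 h. Other probe sets gave 0.40 and 0.48 there for PSMA1, 0.14 for PSMA7 and, at a dim signal, -0.36 for PSMA5. That of PSMA7 was highest at 42 °C and 0 h, at 0.36. After 44 °C the class medians were 0.16, -0.038, 0.13 and 0.15.

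The constitutive beta subunits, PSMB1 to PSMB7, include the catalytic subunits PSMB5, PSMB6 and PSMB7. Their medians against the control were 0.22, 0.13, 0.36 and 0.15 after 42 °C and 0.15, -0.15, -0.022 and -0.012 after 44 °C. With quantile normalisation the value at 42 °C and 3 h was 0.056 and 4 of 7 genes were above the control in place of 7. PSMB1 had 5010.3 in the control, 5550.0, 5651, 6956 and 5719 at 0, 1, 3 and 6 h after 42 °C, and 5394, 4415, 4722 and 4970.2 at those times after 44 °C, and PSMB4, a structural subunit, had 3275 in the control, 3639, 3746, 4381 and 3329 at 0, 1, 3 and 6 h after 42 °C, and 3478, 2805, 2982 and 3105 at those times after 44 °C. Both were highest at 42 °C and 3 h and lowest at 44 °C and 1 h, also by the next brightest probe set of each. A dimmer probe set of PSMB4 was instead highest at 42 °C and 6 h, at 269, and lowest at 44 °C and 6 h, at 120. The catalytic subunits did not share 1 profile: PSMB6, the caspase-like site, had its highest log2 fold of 0.57 at 42 °C and 0 h (0.44 with quantile normalisation), just under 1.5-fold, while PSMB5, the chymotrypsin-like site targeted by bortezomib, had 0.30 and 0.34 at 0 h and ran from -0.10 to 0.082 on the recovery arrays. PSMB7, the trypsin-like site, ran from -0.21 to 0.36 over the 8 heated arrays. The structural subunits PSMB2 and PSMB3 ran from -0.14 to 0.23 and from -0.15 to 0.33.

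The inducible beta subunits PSMB8, PSMB9 and PSMB10 replace the constitutive catalytic subunits in the immunoproteasome of interferon-treated and immune cells. None of the 3 rose or fell. PSMB8 ran from 782 to 1003 with a median of 897. PSMB9 had 146 in the control, 140.3, 175, 198 and 152 at 0, 1, 3 and 6 h after 42 °C, and 160.2, 195, 180.0 and 176 at those times after 44 °C. Its highest log2 folds were 0.44 at 42 °C and 3 h and 0.42 at 44 °C and 1 h. PSMB10 had 256 in the control, 341, 287, 334 and 218 at 0, 1, 3 and 6 h after 42 °C, and 340.0, 229, 285 and 245 at those times after 44 °C, which put both 0 h arrays and the 42 °C array at 3 h highest and the 42 °C array at 6 h lowest. PSMB5, PSMB8 and PSMB10 were higher on both 0 h arrays than on the 1 h and 6 h arrays of either temperature. So were genes of other classes, PSMD3, PSMD11, PSME3, PSMG1 and PSMG3 among them. At 6 h the log2 folds of PSMB8, PSMB9 and PSMB10 were -0.071, 0.066 and -0.23 after 42 °C and 0.087, 0.28 and -0.063 after 44 °C.

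In the 19S cap, the ATPases PSMC1, PSMC2, PSMC3, PSMC4 and PSMC6 form the ring that unfolds substrates. Their median log2 fold was 0.40 at 42 °C and 0 h (0.28 with quantile normalisation), with all 5 of 5 above the control under both, and 0.35 at 3 h. PSMC6 had 1160.5 in the control, 1536, 1068, 1314 and 929 at 0, 1, 3 and 6 h after 42 °C, and 1262, 1278, 1521 and 1379 at those times after 44 °C. It was lowest at 42 °C and 6 h and higher after 44 °C at that time, with a log2 difference between temperatures of 0.57, the highest of any proteasome gene in that comparison and just under 1.5-fold. PSMC3 had 711 in the control, 984, 772, 909 and 738 at 0, 1, 3 and 6 h after 42 °C, and 745, 640.2, 762 and 726 at those times after 44 °C, with its highest value at 42 °C and 0 h and its lowest at 44 °C and 1 h. PSMC1 was above the control on all 8 heated arrays, with log2 folds of 0.17 to 0.55 (0.15 to 0.52 with quantile normalisation), and passed 1.5-fold on none. PSMC2 and PSMC4 ran from 0.0028 to 0.35 and from -0.057 to 0.30.

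The non-ATPase subunits of the cap hold ubiquitin receptors, a deubiquitinase and scaffolds, and 9 of them had a level. PSMD4, a ubiquitin receptor, had 1217 in the control, 1854, 1578, 1801 and 1362 at 0, 1, 3 and 6 h after 42 °C, and 1636, 1322, 1366 and 1467 at those times after 44 °C. It rose 1.52-fold at 42 °C and 0 h, a log2 fold of 0.61 that became 0.47 with quantile normalisation and so lost the call, while its other probe sets off the floor gave 0.54 to 0.66. Every heated array was above the control for PSMD4 by its brightest probe set, the 42 °C arrays at 0 and 3 h most. Its other probe sets differed at 1, 3 and 6 h after 44 °C. There 1 had log2 folds of -0.17, -0.0044 and -0.058, and another had 0.10, 0.48 and 0.47. PSMD12, a lid scaffold, had 1179.9 in the control, 1227, 913, 1259 and 1537 at 0, 1, 3 and 6 h after 42 °C, and 1232, 1154, 1239 and 1603 at those times after 44 °C. It was lowest at 42 °C and 1 h, with a log2 fold of -0.37, and was highest on both 6 h arrays, at 0.38 and 0.44. Its dimmer probe set gave -0.20, -0.051 and 0.35 there, so the late difference after 42 °C was seen by the brighter probe set only. The remaining subunits PSMD1, PSMD2, PSMD3, PSMD6, PSMD8, PSMD11 and PSMD14, the last a deubiquitinase, had log2 folds from -0.27 for PSMD8 at 44 °C and 1 h to 0.43 for PSMD2 at 42 °C and 0 h. PSMD2, a base scaffold, was above the control on all 8 heated arrays, also with quantile normalisation.

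**Figure D4:**
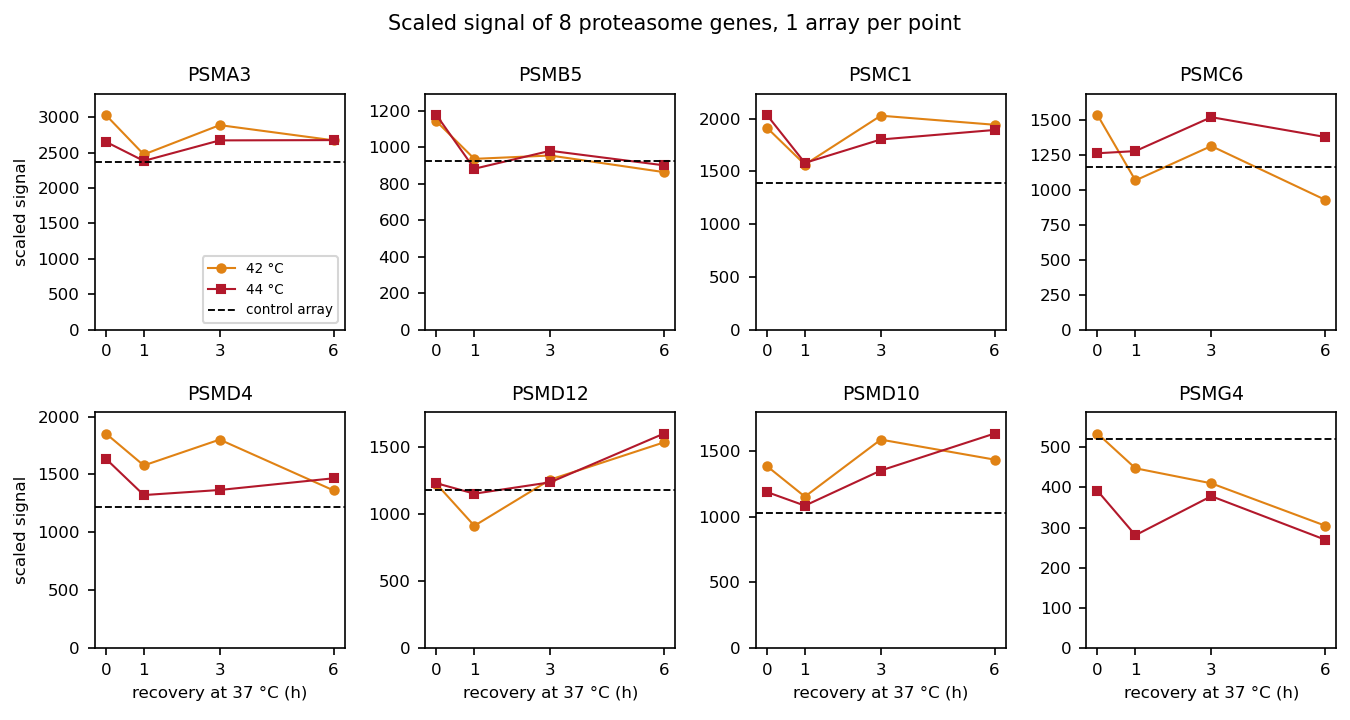
Scaled signal (y axis, from 0) of 8 proteasome genes, chosen with their values known, by hours of recovery at 37 °C (x axis) after 42 °C (circles) or 44 °C (squares), with the control array as a dashed line. Each point is 1 array; PSMB5 is above the control on both 0 h arrays and close to it later, the temperatures lie farthest apart at 6 h for PSMC6, PSMD10 is above the control throughout, and PSMG4 goes from 521 in the control to 269.8 at 44 °C and 6 h.

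By the brightest probe set of each gene, none of the activators and the inhibitor passed 1.5-fold against the control, although other probe sets of PSME3 and PSMF1 did. PSME1, a subunit of the interferon-induced PA28 activator, had 593 in the control, 682, 677, 651 and 816 at 0, 1, 3 and 6 h after 42 °C, and 685, 598, 755 and 668 at those times after 44 °C, highest at 42 °C and 6 h. PSME3, the nuclear PA28 gamma, had 769 in the control, 948, 721, 703 and 581 at 0, 1, 3 and 6 h after 42 °C, and 940.2, 883, 858 and 779 at those times after 44 °C. It was highest on both 0 h arrays and lowest at 42 °C and 6 h, where its log2 fold was -0.40 and its other probe sets gave -0.70 to -0.019. At 42 °C and 0 h its log2 fold was 0.30, and its other probe sets gave 0.30 to 0.72. PSME1 and PSME3 thus stood on opposite sides of the control at 42 °C and 6 h. PSME4, the PA200 activator, ran from 653 to 834. PSMF1, the inhibitor PI31, ran from 983 to 1229.7, the narrowest range of the genes above the floor by their brightest probe sets. The next brightest probe set of PSMF1 varied more, from 462 at 42 °C and 6 h to 898 at 44 °C and 3 h. Its log2 fold was -0.66 at 42 °C and 6 h, and its log2 difference between temperatures at 6 h was 0.84. The class median was 0.084 at 42 °C and 3 h, where that of the 20S core was 0.39 and that of the 19S cap 0.31, and with quantile normalisation these were 0.045, 0.095 and 0.12.

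Of the 7 folds past 1.5, 6 belonged to a pair of assembly factors. PSMD10 (gankyrin), a chaperone of the 19S base that also binds the retinoblastoma protein, had 1028 in the control, 1384, 1152, 1586 and 1434 at 0, 1, 3 and 6 h after 42 °C, and 1187, 1083, 1351 and 1632 at those times after 44 °C. It rose 1.54-fold at 42 °C and 3 h and 1.59-fold at 44 °C and 6 h, and was above the control on all heated arrays. With quantile normalisation the log2 folds were 0.52, under 1.5-fold, and 0.62, and its other probe set gave 0.82 and 0.89. PSMG4, which with PSMG3 helps to build the alpha ring, had 521 in the control, 534, 448, 410.1 and 305 at 0, 1, 3 and 6 h after 42 °C, and 391, 281, 378 and 269.8 at those times after 44 °C. It fell 1.71-fold at 42 °C and 6 h, 1.86-fold at 44 °C and 1 h and 1.93-fold at 44 °C and 6 h, with log2 folds of -0.74, -0.92 and -0.95 under quantile normalisation. This rests on 1 probe set, since the other 4 of PSMG4 had signals of at most 22.5 on any array. The only array above the control was that of 42 °C and 0 h.

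None of the other assembly factors passed 1.5-fold. PSMG3, the partner of PSMG4, had log2 folds from -0.37 at 44 °C and 6 h to 0.28 at 42 °C and 0 h, and PSMG1 and PSMG2, which pair with each other in alpha-ring assembly, ran from -0.11 to 0.27 and from -0.14 to 0.40. PSMD5 and PSMD9, chaperones of the 19S base like PSMD10, ran from -0.16 to 0.38 and from -0.36 to 0.09. PSMD5 was highest at 44 °C, 1 and 3 h.

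The promoter windows of PSMD10 and PSMG4 are shown beside that of PSMD6, a lid subunit that stayed under 1.5-fold and whose window holds a heat shock element core, and of ZFAND2A, a proteasome-associated gene, whose values are given with the pathway genes. Each runs 5′ to 3′ from 250 bases before to 50 after the RefSeq gene start in build GRCh38.p14, so it holds the upstream region and the first transcribed bases. Capitals mark a match to the core of the heat shock element, the binding site of heat shock factors, spelled GAANNTTC or TTCNNGAA. PSMD10 lies at chrX:108091493-108091792 (minus strand), PSMG4 at chr6:3258697-3258996 (plus strand), PSMD6 at chr3:64023445-64023744 (minus strand) and ZFAND2A at chr7:1160147-1160446 (minus strand).
PSMD10: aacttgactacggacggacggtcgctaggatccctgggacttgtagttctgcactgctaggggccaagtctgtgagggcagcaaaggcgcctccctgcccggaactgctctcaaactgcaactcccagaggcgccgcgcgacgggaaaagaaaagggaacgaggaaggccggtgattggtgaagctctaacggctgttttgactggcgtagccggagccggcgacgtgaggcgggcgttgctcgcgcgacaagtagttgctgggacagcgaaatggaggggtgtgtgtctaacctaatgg
PSMG4: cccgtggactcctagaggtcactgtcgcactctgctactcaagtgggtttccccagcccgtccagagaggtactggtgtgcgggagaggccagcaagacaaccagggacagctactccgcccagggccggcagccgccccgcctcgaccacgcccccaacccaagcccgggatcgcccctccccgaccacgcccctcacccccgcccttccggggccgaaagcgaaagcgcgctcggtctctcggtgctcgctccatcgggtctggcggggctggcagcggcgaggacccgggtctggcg
PSMD6: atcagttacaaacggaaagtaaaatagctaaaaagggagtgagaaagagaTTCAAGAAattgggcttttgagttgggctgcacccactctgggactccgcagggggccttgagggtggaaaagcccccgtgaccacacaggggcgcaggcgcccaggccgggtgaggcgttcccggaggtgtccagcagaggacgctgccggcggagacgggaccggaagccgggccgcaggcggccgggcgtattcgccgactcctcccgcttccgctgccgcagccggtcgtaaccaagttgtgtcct
ZFAND2A: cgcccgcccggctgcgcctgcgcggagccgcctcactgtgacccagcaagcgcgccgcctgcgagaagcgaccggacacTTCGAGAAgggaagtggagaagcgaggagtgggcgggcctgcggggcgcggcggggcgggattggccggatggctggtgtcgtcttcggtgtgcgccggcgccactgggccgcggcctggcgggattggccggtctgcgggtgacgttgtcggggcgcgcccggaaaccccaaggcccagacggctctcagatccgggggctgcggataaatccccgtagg
The PSMD6 match starts 200 bases before the gene start and the ZFAND2A match 171 bases before it, and the windows of PSMD10 and PSMG4 hold none.

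Over the family, 36 of 42 genes had 43 windows in the RefSeq table. The heat shock element core was found on either strand in 3 of them (6.98%), those of PSMB5, PSMD5 and PSMD6, against 13.5% of all 35116 windows. A longer form of the heat shock element, with 3 units at the same spacing, contains the core and was chosen after the values were seen. It was in 0 of 43 windows and in 0.49% of all. The core of the antioxidant response element, TGACNNNGC, to which NFE2L1 and NFE2L2 bind, was in 13 windows (30.2%), PSMD12, PSMA4, PSMB3 and PSMC4 among them, against 13.3%. CCAAT was in 17 windows (39.5%), PSMA3 and PSMD10 among them, against 34.6%. These are matches of letters in short windows and show no binding.

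Set against each other at the same recovery time, 44 °C arrays had slightly lower proteasome signals than 42 °C arrays. The median log2 difference of 44 °C minus 42 °C was -0.093, -0.17, -0.18 and -0.029 at 0, 1, 3 and 6 h, where the brightest 10% of genes had -0.082, -0.088, -0.10 and -0.0017. With quantile normalisation the values were -0.019, -0.067, -0.074 and -0.0052. At 3 h 35 of 41 genes were lower after 44 °C, where 35.3% of the brightest 10% of genes were higher. With quantile normalisation 26 of 41 were lower, where 52.4% of the brightest 10% were higher. Between temperatures 0 of 42 genes were past 1.5-fold higher and 0 lower at 0 h (6.45% and 2.84% of all genes), 0 and 1 at 1 h (5.07% and 4.69%), 0 and 0 at 3 h (5.36% and 5.00%), and 0 and 0 at 6 h (4.11% and 6.06%). The gene past it at 1 h was PSMG4, 1.59-fold lower after 44 °C. The 20S core differed most at 3 h, with a median of -0.28 and -0.56 for PSMB1, which became -0.08 and -0.08 with quantile normalisation. Taken over the 4 recovery times, 44 °C was tested against 42 °C with limma, with recovery time as a block and 3 residual degrees of freedom, on the 9760 genes with a mean signal of at least 2 times the floor. The test takes the recovery times as its replicates, and it was added after the values were seen. It called 0 of 41 proteasome genes higher and 0 lower at an adjusted p under 0.05, and 0% and 0% of all genes tested. In simulated data the limma test recovered 16 of 50 genes changed 1.5-fold and 35 of 50 changed 2-fold. The 0 calls therefore do not show that small differences were absent. At an unadjusted p under 0.05 there were 5 proteasome genes and 19.6% of all genes. The smallest adjusted p of the family by limma was 0.20, for PSMA4, which was lower after 44 °C at 4 of 4 times, with a log2 difference of -0.29 ± 0.095 (SE) and a 95% interval of -0.52 to -0.055. With quantile normalisation it was -0.016 ± 0.086, with an adjusted p of 0.94 by limma. PSMG4, also lower at 4 of 4 times, differed by -0.35 ± 0.13 (limma adjusted p = 0.21) and by -0.38 ± 0.12 with quantile normalisation (limma adjusted p = 0.23). Among single times PSMD5 was higher after 44 °C, with 0.49 at 1 h and 0.53 at 3 h (0.46 and 0.47 with quantile normalisation).

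Other genes of the pathway, from a list of 18 of which 17 had a level, showed 1 strong rise and few others. After 42 °C, 1, 1, 1 and 3 of them rose at 0, 1, 3 and 6 h and 2, 1, 2 and 1 fell, where 3.70%, 5.42%, 5.85% and 8.15% of all genes rose and 8.01%, 5.36%, 9.07% and 8.56% fell. After 44 °C, 0, 1, 1 and 3 rose and 0 fell at any time, against 3.93%, 3.64%, 3.93% and 6.55% and 4.40%, 2.84%, 6.06% and 8.94% of all genes. ZFAND2A (AIRAP), which joins the proteasome under arsenite and heat, had a scaled signal of 185 in the control, 891, 1743, 4122 and 3111 at 0, 1, 3 and 6 h after 42 °C, and 189, 625, 2669.8 and 4119 at those times after 44 °C. The 44 °C array at 0 h was close to the control and the 7 others were far above it, with a rise of 22.3-fold at 42 °C and 3 h and 22.3-fold at 44 °C and 6 h. SEM1, a small subunit of the 19S lid whose symbol lies outside the rule, had 1368 in the control, 1689, 1701, 2016 and 2364 at 0, 1, 3 and 6 h after 42 °C, and 1818, 1901, 1992 and 2433 at those times after 44 °C. It was above the control on all heated arrays and rose 1.73-fold and 1.78-fold at 6 h. That rise was larger than that of any PSM gene at that time by its brightest probe set. The other probe set of PSMD10 had a log2 fold of 0.89 at 44 °C and 6 h, against 0.83 for SEM1. AKIRIN2, which carries proteasomes into the nucleus, rose 1.53-fold and 1.95-fold at 6 h, although its other probe sets had log2 folds of -0.18 to 0.84 at 42 °C and 6 h and of 0.035 to 0.35 at 44 °C and 6 h.

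NFE2L1, known to raise transcription of the subunit genes, had no rise in its mRNA on any heated array. Its activity was not measured. NFE2L1 fell 1.57-fold at 42 °C and 0 h and 1.55-fold at 3 h by its brightest probe set, while the others gave log2 folds of -0.39 to 0.11 and -0.55 to -0.35. Its relative NFE2L2 ran from -0.32 to 0.063, POMP, which matures the 20S core, from -0.18 to 0.29, and the cap's deubiquitinases USP14 and UCHL5 from -0.12 to 0.13 and from 0.20 to 0.50. UBE3C, a ubiquitin ligase on the proteasome, had 403 in the control, 242, 264, 259.7 and 246 at 0, 1, 3 and 6 h after 42 °C, and 419, 529.5, 432 and 425 at those times after 44 °C. All 42 °C arrays were below and all 44 °C arrays above the control by this probe set, with falls of 1.52-fold to 1.66-fold. Its other probe sets, at a signal of 95.3 or less, did not show this, with log2 folds from 0.011 to 0.54 at 42 °C and 0 h.

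The immunoproteasome makes peptides for antigen presentation, and 8 genes of that process had a level, namely the peptide handlers TAP1, TAP2, TAPBP, ERAP1 and ERAP2, the class I light chain B2M, and the regulators NLRC5 and IRF1. Of these, 0, 1, 0 and 0 rose after 42 °C and 2, 1, 2 and 1 fell, against 3.70%, 5.42%, 5.85% and 8.15% and 8.01%, 5.36%, 9.07% and 8.56% of all genes. Every fall after 42 °C was that of NLRC5 or IRF1. The counts were 0, 1, 0 and 1 rises and 0, 3, 3 and 2 falls after 44 °C, against 3.93%, 3.64%, 3.93% and 6.55% and 4.40%, 2.84%, 6.06% and 8.94%. TAP1, a subunit of the peptide transporter, had 136 in the control, 148, 115, 136 and 174 at 0, 1, 3 and 6 h after 42 °C, and 141, 80.4, 96.1 and 111 at those times after 44 °C. It fell 1.69-fold at 44 °C and 1 h, where PSMB9, its neighbour on chromosome 6, had a log2 fold of 0.42. IRF1, an interferon-induced activator of these genes, fell 2.70-fold at 42 °C and 0 h and 1.89-fold at 44 °C and 3 h, where its other probe set had log2 folds of -0.54 and -0.96. TAP2 fell 1.79-fold at 44 °C and 6 h, where its other probe sets gave log2 folds of -0.54 to -0.15. NLRC5, which activates major histocompatibility class I genes, fell 2.76-fold at 42 °C and 3 h from a signal of 77.3. ERAP1, which trims peptides in the endoplasmic reticulum, had 47 in the control, 39.7, 72, 53.7 and 46.3 at 0, 1, 3 and 6 h after 42 °C, and 60.7, 75.7, 66.2 and 114 at those times after 44 °C. It rose 1.53-fold at 42 °C and 1 h, 1.61-fold at 44 °C and 1 h and 2.43-fold at 44 °C and 6 h by its brightest probe set. Its other probe sets did not show these rises, with log2 folds of -0.041 to 0.47, -0.31 to 0.085 and -0.45 to -0.11, all below the control at 44 °C and 6 h.

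**Figure D5:**
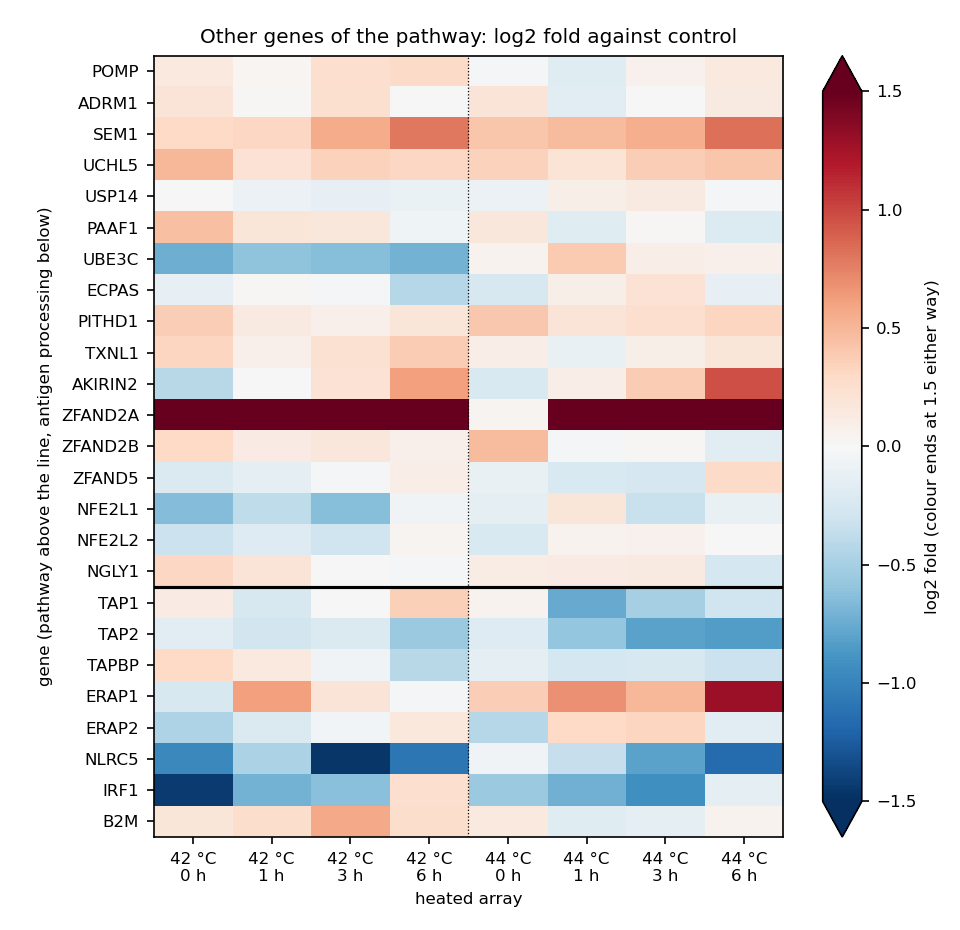
Log2 fold against the control of 17 other genes of the proteasome pathway (above the line) and 8 antigen processing genes (below) on each heated array, with red higher and blue lower and the colour ending at a log2 fold of 1.5 either way. ZFAND2A is past the colour scale on all heated arrays except 44 °C at 0 h, SEM1 is red throughout, and UBE3C is blue on the 42 °C arrays alone by its brightest probe set.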

How the data were processed

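The authors deposited a linear intensity for each of 54675 probe sets on each array, made with MAS5 per the submitters' processing notes. Per the labels' protocols, biotin-labelled cRNA was made from total RNA by a one-cycle 3′ method. Their scaling target is unknown here, and scanner files were not analysed here. A single factor per array, from 0.474 to 0.989, set its 2% trimmed mean to 100 over probe sets other than the 62 controls. The median of the scaled signals, 12.5, served as a floor before log2 was taken. Such scaling can shift bright genes as a group, so quantile normalisation was run as a check. Of all probe sets 41091 non-control ones had 1 symbol, of which 41037 matched RefSeq by gene number, and 1801 had several and named no gene. A gene is represented by its brightest probe set, by mean log2 signal. Of the 42 genes 22 had several. Signals were not read as levels of different genes relative to each other.

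Groups were taken from the sample labels. The 12 comparisons (8 with the control, 4 between temperatures) were described by fold, count and median. Temperature was also tested with limma 3.58.1 in R 4.3.3 (44 minus 42 °C, recovery time as a block, Benjamini-Hochberg adjustment), a test added after the values were seen. Signals on all arrays were given for PSMD12, PSMA3, any member past 2-fold and the 2 members of each class with the largest range. NFE2L2, POMP, USP14 and UCHL5 were named after their values were seen. Other floors, the median over probe sets, the 0 h array as baseline and 2-fold were tried. The members, classes and lists were chosen with earlier results of these data known. The steps were tested on simulated data. Python 3.11.15, numpy 2.4.6 and pandas 2.3.3 were used. Promoter windows are RefSeq's.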

Additional observations from a re-analysis of the deposited data

Results flagged for a closer look

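PSMA4, an alpha subunit of the 20S core, was above the control on all 4 arrays after 42 °C and below it on all 4 after 44 °C, and the median log2 fold at 42 °C exceeded that at 44 °C by 0.25. Tested over the 4 recovery times with limma, with recovery time as a block, the difference of 44 minus 42 °C was -0.29 ± 0.095 (SE) in log2, lower at 4 of 4 times, and did not pass the adjustment over all genes (adjusted p = 0.20, and 0.12 to 0.94 over all settings tried). The fold of each array uses the same control. The folds were small, from -0.21 to 0.32 in log2. With quantile normalisation all 8 arrays lay below the control, from -0.12 to -0.016. No group has the 4 arrays needed to look for an array far from the others.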

How the results depend on the processing

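Arrays of both temperatures at 1 recovery time were treated as a pair only in the limma test of temperature, which called 0 of 41 proteasome genes with recovery time as a block and 0 without it, and 0 in every other setting of that test, added after the data were seen (quantile normalisation, both other floors, the median over probe sets, no filter on low signals and leaving out each recovery time). At an unadjusted p under 0.05 the limma test held 5 proteasome genes with the block, 2 without it, 12 with the floor at 4 times the median and 0 to 7 without 1 recovery time, lowest without 1 h. Over all genes tested, limma called 9 higher and 2 lower with the floor at 4 times the median and 0 in the other settings. No pairing by replicate number exists, since each condition has 1 array. A value was taken to have moved when it changed by more than 0.22 in log2, and a count when it changed by over 1.5 times. Under quantile normalisation, both other floors and the median over probe sets, the median log2 fold of the proteasome genes moved by less than that in all 12 comparisons. The limit of 0.22 is a spread of single genes and is wide for a median over many genes, so this check is weak. With quantile normalisation the median at 42 °C and 3 h still went from 0.27 to 0.084. Against the 0 h array of the same temperature the median log2 fold was -0.18, -0.00074 and -0.14 at 1, 3 and 6 h after 42 °C. Of the 7 changes past 1.5-fold, 5 stayed past it with quantile normalisation, 7 with a floor at 4 times the median, 7 with a floor at the 25th percentile and 3 with the median over probe sets, which takes in probe sets at the floor. Of 5 that could be set against the 0 h array 1 stayed past it. With 2-fold in place of 1.5-fold all counts were 0.

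Counts of proteasome genes past 1.5-fold moved as follows. With quantile normalisation rises were 0 at 42 °C and 0 h and 0 at 3 h. With the floor at the 25th percentile, which lets dim signals vary, rises were 2, 1, 2 and 1 at 0, 1, 3 and 6 h after 42 °C and 1, 1, 1 and 2 after 44 °C, and 2 genes were lower at 44 than at 42 °C at 1 h. With the median over probe sets there were 2 rises and 1 fall at 42 °C and 0 h, 1 rise at 1 h, 2 falls at 6 h, 0 and 0 falls at 44 °C, 1 and 6 h, and 2 genes higher at 44 than at 42 °C at 6 h. Against the 0 h array there were 0 rises at 42 °C and 3 h, 4 falls at 6 h, 0 falls at 44 °C and 1 h and 0 rises at 6 h.

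Single changes that turned with the median over probe sets were PSMG4 at 42 °C and 6 h (0.046), AKIRIN2 at 42 °C and 6 h (-0.096), NFE2L1 at 42 °C and 0 h (0.013), and UBE3C at 42 °C, 0 and 1 h (0.54 and 0.81) and between temperatures at 0, 1 and 6 h (-0.61, -0.18 and -0.39). Against the 0 h array NFE2L1 at 42 °C and 3 h (0.015) and UBE3C at 1, 3 and 6 h after 42 °C (0.13, 0.10 and 0.024) turned. The cause was not tested. Precision is limited by having 1 array per condition.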
